A study of Arabidopsis thaliana with 14 samples.

Results

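Polyadenylated RNA from the nuclei of wild-type Arabidopsis thaliana flower buds was compared with polyadenylated RNA from the cytoplasm of the same kind of buds. The comparison rests on 4 of the 14 libraries in the series, namely 2 labelled wild-type nuclear and 2 labelled wild-type cytoplasmic, all of the Columbia background with no mutant allele and no treatment. The series was made to follow mRNA export in plants carrying the aly1-2 allele of ALY1, a gene for an mRNA export adaptor, and the 4 aly1-2 fraction libraries (2 nuclear and 2 cytoplasmic, also Columbia) serve here as a second measurement. All plants were grown in days of 16 h light at 22 °C, and inflorescences with unopened buds of stages 1 to 12 were fractionated, so each library mixes many cell types and stages. The labels give replicate numbers but do not say whether replicates came from separate plants, so p-values measure the spread between these libraries, which may be technical.

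In plant cells, mRNA is capped, spliced and polyadenylated in the nucleus and then handed to export factors that carry it through nuclear pores. Some polyadenylated RNAs, such as small nucleolar RNA precursors and many long non-coding RNAs, work or are degraded in the nucleus, and mRNAs for membrane and secreted proteins are translated on the endoplasmic reticulum, whose membrane is continuous with the outer nuclear envelope. Ribosomal RNA and tRNA are found mainly outside the nucleus.

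The nuclear libraries held 7.23 and 8.87 M counted reads (M, 1000000 reads) and the cytoplasmic libraries 9.67 and 9.33 M. Reads of the nuclear genome other than its rRNA genes, on which all values are scaled, came to 6.21 and 7.44 M in nuclear RNA, against 2.30 and 3.23 M in cytoplasmic RNA. rRNA took 4.61% and 5.49% of nuclear reads, against 60.5% and 49.4% of cytoplasmic reads, although all libraries were selected for poly(A) tails. Plastid genes took 8.56% and 9.48% of nuclear reads and 15.2% and 15.3% of cytoplasmic reads, so nuclear RNA was not free of plastid RNA. Nuclear replicate 1 stood apart from the other libraries: of 6103 genes with no read in any unfractionated library, it detected 1636, against 544 in nuclear replicate 2 and 311 and 332 in the cytoplasmic libraries. The part these differences play in the results below was not tested, and the counts over all genes and over gene groups were also computed with each library left out in turn. The bud identity carried by the labels could be read from floral genes: PISTILLATA (PI), a petal and stamen MADS-box factor, had 152 and 97.97 CPM (counts in each 1000000 of the reads used for scaling) in nuclear RNA and 266 and 342 CPM in cytoplasmic RNA.

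Several RNA classes outside the protein-coding genes had different levels in the fractions. For each 1000000 nuclear-genome reads, snoRNA genes summed to 784 and 484 reads in nuclear RNA, against 234 and 260 in cytoplasmic RNA. The sum for annotated long non-coding RNA genes was 4580 and 4890 in nuclear RNA, against 2090 and 2230 in cytoplasmic RNA. tRNA genes of the nuclear genome, outside a mitochondrial stretch of chromosome 2, went the other way, with 31.2 and 10.2 in nuclear RNA, against 159 and 213 in cytoplasmic RNA. The nuclear and cytoplasmic values did not overlap in any of these 3 classes. Spliceosomal snRNA genes also lay lower in nuclear RNA, at 82.3 and 95.9, against 127 and 192 in cytoplasmic RNA. With 2 libraries a side, no exact permutation test can pass, so these sums are descriptions.

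**Figure D1:**
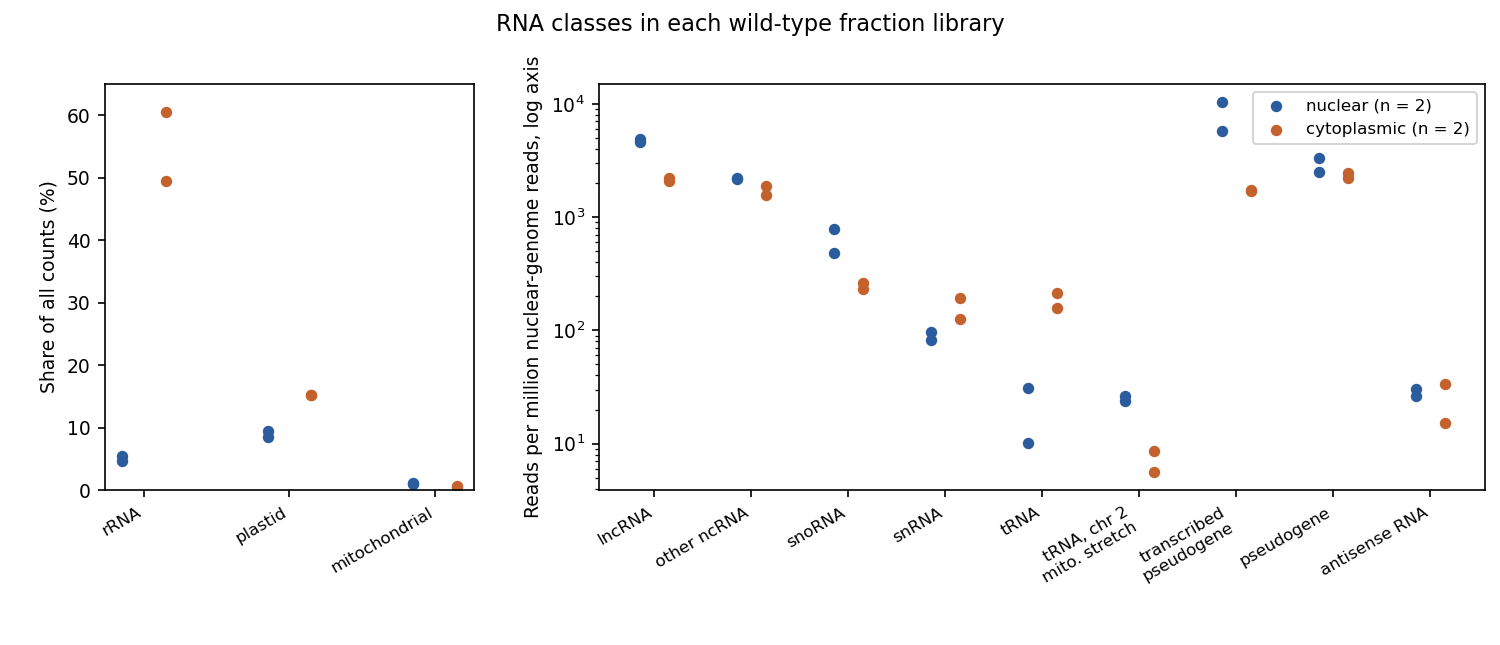
Share or summed level of each RNA class in each library, with nuclear libraries left of cytoplasmic libraries and 1 point for each library. rRNA reached 60.5% of the reads of a cytoplasmic library and at most 5.49% of those of a nuclear library, while snoRNA and long non-coding RNA lay higher in both nuclear libraries.

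Among the 50 snoRNA genes with enough reads to test, of 287 annotated, 11 (22%, against 12% of all genes tested) were higher in nuclear RNA and the other 39 did not pass the test, with a median log2 difference of nuclear over cytoplasmic of 1.20 and 5 or 6 higher with 1 library left out. Among the 30 whose counts were whole numbers, 1 was higher, with a median of 0.60. snoRNAs guide the chemical modification of rRNA in the nucleolus. AT3G02445 had 12.0 and 15.4 CPM in nuclear RNA, against 2.29 and 0.923 CPM in cytoplasmic RNA, a log2 difference of 3.11 ± 0.61 (SE; adjusted p = 0.00409). AT4G39363 had 16.1 and 13.8 CPM in nuclear RNA, against 1.53 and 2.46 CPM in cytoplasmic RNA, a difference of 2.88 ± 0.57 (adjusted p = 0.00471). Both stayed called with any 1 library left out. AT4G39364 and AT4G39366, annotated side by side with AT4G39363 on chromosome 4 and shown for that reason after their values were seen, differed by 2.71 and 2.65 with all 4 libraries. The sequences of these snoRNAs are given below 5′ to 3′ from the RefSeq TAIR10.1 assembly. Capitals mark box C (TGATGA) and box D (CTGA), the short elements near each end by which C/D snoRNAs bind their proteins. The search did not find the exact letters of box C in AT4G39363, so only its box D is marked. AT3G02445 lies at chr3:3628138-3628219 (minus strand), and the other genes at chr4:18305256-18305375, chr4:18305415-18305536 and chr4:18305585-18305704 (plus strand).
AT3G02445: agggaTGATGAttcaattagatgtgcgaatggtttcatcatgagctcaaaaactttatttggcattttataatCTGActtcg
AT4G39363: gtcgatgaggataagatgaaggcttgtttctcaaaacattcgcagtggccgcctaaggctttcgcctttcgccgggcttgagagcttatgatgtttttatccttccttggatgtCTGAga
AT4G39364: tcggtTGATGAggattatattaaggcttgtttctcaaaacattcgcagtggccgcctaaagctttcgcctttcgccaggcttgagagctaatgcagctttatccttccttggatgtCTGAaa
AT4G39366: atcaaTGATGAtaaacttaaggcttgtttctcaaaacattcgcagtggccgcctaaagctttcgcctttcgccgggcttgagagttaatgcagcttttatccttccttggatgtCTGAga

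The exact letters of box C within 20 bases of the 5′ end and box D within 20 bases of the 3′ end, on the annotated strand, were both present in 4 of the 11 called snoRNA genes (36.4%), in 20 of the 50 tested (40%) and in 120 of all 287 annotated (41.8%). The same search found both in 0 of 625 tRNA genes. The called snoRNA genes therefore held these letters at about the share of all annotated ones. U3D, a copy of the U3 snoRNA that takes part in cleavage of the rRNA precursor, had 97.6 and 48.5 CPM in nuclear RNA, against 7.25 and 21.2 CPM in cytoplasmic RNA (log2 difference 2.34 ± 0.49, adjusted p = 0.0059). It overlaps an annotated gene on the opposite strand, and its adjusted p was 0.0546 at most without nuclear replicate 1 or cytoplasmic replicate 1.

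tRNA genes outside a mitochondrial stretch of chromosome 2 lay mostly on the cytoplasmic side. Of 602 such genes, 32 had enough reads to test. Of these, 31 had a negative log2 difference of nuclear over cytoplasmic, and 18 were called lower in nuclear RNA. The filter kept any gene with enough reads in the libraries of a single group. Several of these genes passed with reads almost only in cytoplasmic RNA, so the number of negative signs was partly set by the filter. The sums over all 602 genes, given above, do not rest on it. The methionine tRNA gene AT5G57885 had 0 and 0 reads in the nuclear libraries, against 14 and 54 reads in the cytoplasmic libraries, at least 26.2-fold lower in nuclear RNA when 3 reads are set for each empty library (adjusted p = 0.00204). The isoleucine tRNA gene AT1G07100 had 0 and 0 reads, against 12 and 30 reads, at least 16.4-fold lower in nuclear RNA (adjusted p = 0.00528, and 0.0504 without nuclear replicate 2). Counts of single tRNA genes were low, and the number of all tRNA genes called lower fell to between 1 and 12 with 1 library left out, with 1 without nuclear replicate 2, 3 without cytoplasmic replicate 2 and 6 without nuclear replicate 1. Mature tRNAs carry no poly(A) tail, so these reads are the part of tRNA-derived RNA that passed the selection. The anticodon is in capitals in the sequences below (TAIR10.1, chr5:23445994-23446065 and chr1:2177885-2177958, both plus strand), beside that of AT2G07763, a cysteine tRNA gene inside the mitochondrial stretch at chr2:3495442-3495512 (plus strand) that lay on the nuclear side.
AT5G57885: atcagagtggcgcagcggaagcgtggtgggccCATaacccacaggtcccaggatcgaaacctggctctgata
AT1G07100: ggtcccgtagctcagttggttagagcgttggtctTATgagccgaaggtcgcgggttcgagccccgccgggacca
AT2G07763: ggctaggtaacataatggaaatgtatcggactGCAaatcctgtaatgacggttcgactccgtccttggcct

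Across all 20541 genes tested with edgeR's quasi-likelihood test, 2470 genes (12% of those tested) were higher in nuclear RNA and 1518 (7.39%) were lower at a Benjamini-Hochberg adjusted p under 0.05, 19.4% in either direction, and 16553 did not pass. The median log2 difference of all genes was 0.06, with quartiles of −0.70 and 0.97, and nearly all called genes differed by more than 1 log2 unit (2459 higher and 1491 lower). Both nuclear libraries lay above both cytoplasmic ones for 6887 genes (33.5%) and below them for 5956 (29%). The numbers called depended on single libraries. Without nuclear replicate 1, 1530 genes were higher and 468 lower. Without nuclear replicate 2, the counts were 1332 higher and 710 lower. Without cytoplasmic replicate 1 they were 1457 and 861, and without cytoplasmic replicate 2 they were 1139 and 450. Of the 381 called genes named by rule, 195 kept an adjusted p under 0.05 in each of these 4 fits and 0 changed sign. Below, a gene that lost its call in such a fit is given with its highest adjusted p and the library left out, and the others kept theirs. Counts by protein location, by length and inside the chromosome 2 stretch come from all 4 libraries.

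**Figure D2:**
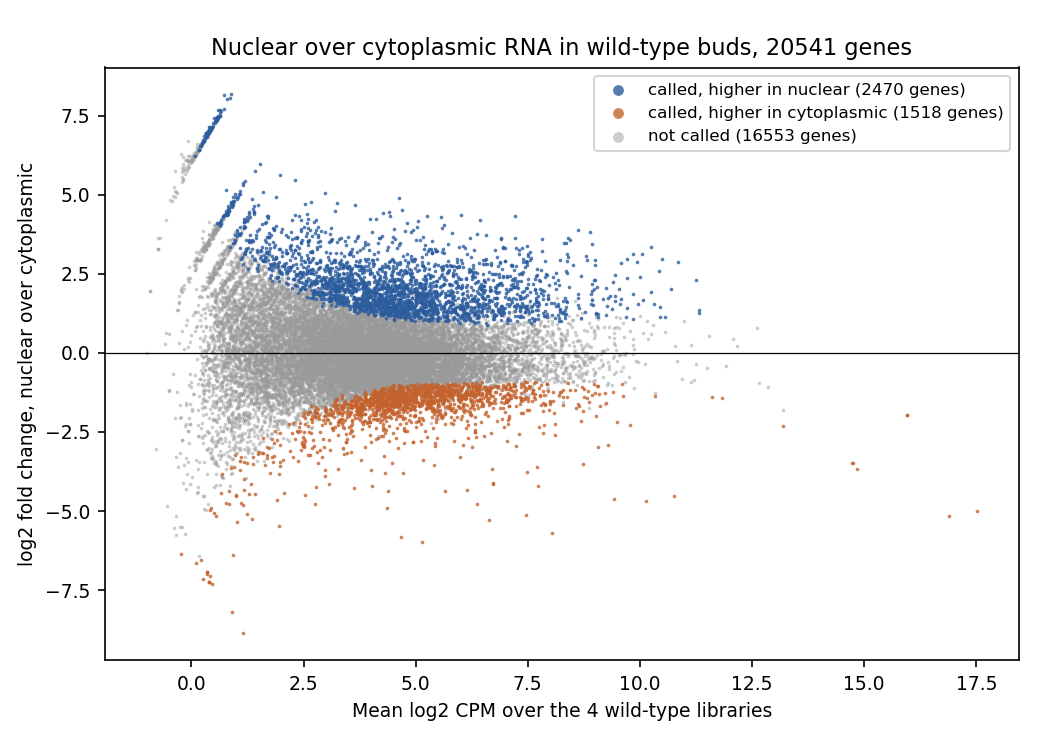
Log2 difference of nuclear over cytoplasmic RNA against mean log2 CPM, with 1 point for each of the 20541 genes tested and colours for the 2470 genes higher and the 1518 lower in nuclear RNA. More of the called genes lie above the zero line than below it.

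The aly1-2 libraries gave a second reading of the same difference, in the same fit. All 8 fraction libraries shared the filter and the estimate of spread for each gene. The calls of the 2 genotypes are therefore not independent. There 2291 genes (11.2%) were higher in nuclear RNA and 1731 (8.43%) were lower. Of the genes called higher in wild-type nuclear RNA, 1622 were also called higher in aly1-2, which is 65.7% of the wild-type and 70.8% of the aly1-2 genes. For genes called lower the number was 1029, or 67.8% of the wild-type and 59.4% of the aly1-2 genes. Not one gene was called in opposite directions in the 2 genotypes, and 2442 of the 2470 and 1508 of the 1518 wild-type calls had the same sign in aly1-2. The difference between genotypes was past the threshold for 0% of genes (edgeR, 0 of 20541, with 693 at an unadjusted p under 0.05).

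Of 310 long non-coding RNA genes tested, of 3480 annotated, 77 (24.8%, against 12% of all genes) were higher in nuclear RNA and 7 lower. Their median log2 difference was 1.02, against 0.06 for all genes. With 1 library left out, between 39 and 44 were higher. AT1G04463 had 151 and 266 CPM in nuclear RNA, against 11.5 and 9.84 CPM in cytoplasmic RNA (4.29 ± 0.49, adjusted p = 0.000221). AT1G17232 had 124 and 151 CPM in nuclear RNA, against 9.16 and 6.15 CPM in cytoplasmic RNA (4.18 ± 0.38, adjusted p = 0.000107). Both overlap a gene on the opposite strand, and since the sources do not say whether reads were counted by strand, reads of the overlapping partner cannot be told apart. GUT15 is a non-coding RNA gene known for an unstable transcript and has no overlapping gene. It had 208 and 242 CPM in nuclear RNA, against 82.8 and 71.4 CPM in cytoplasmic RNA (1.55 ± 0.36, adjusted p = 0.01, and 0.0901 at most without cytoplasmic replicate 1 or 2). The non-coding gene AT2G15128 lay furthest on the cytoplasmic side among called genes averaging 3 or more on the log2 CPM scale: it had 4.78 and 3.78 CPM in nuclear RNA, against 339 and 197 CPM in cytoplasmic RNA (−5.96 ± 0.44, adjusted p = 7.39e-05). The aly1-2 difference for this gene was −5.95.

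Organelle transcripts did not fall on 1 side. All mitochondrial genes summed to 67614 and 101838 reads in the nuclear libraries, beside 6.21 and 7.44 M scaling reads. The cytoplasmic libraries held 53736 and 65735, beside 2.30 and 3.23 M. Relative to the scaling reads the sum therefore lay lower in nuclear RNA, opposite to the median over single mitochondrial genes. Of 152 mitochondrial genes annotated, 87 did not pass the filter. The nuclear libraries detected 122 and 127 of the 152, against 60 and 77 in the cytoplasmic libraries. Since the filter kept any gene with enough reads in a single group, the median and the number higher were partly set by it. The sum over all 152 genes does not rest on it. Of 65 mitochondrial genes tested, 27 were higher in nuclear RNA and the other 38 did not pass, with a median log2 difference of 2.28; 13 to 24 were higher with 1 library left out. Of 124 plastid genes tested, 17 were higher and 39 lower, with a median of −0.34; 7 to 18 were higher and 30 to 40 lower with 1 library left out. ATMG00980, of the mitochondrial genome, had 166 and 459 CPM in nuclear RNA, against 11.8 and 18.2 CPM in cytoplasmic RNA (4.37 ± 0.51, adjusted p = 0.000248). ATCG00620, of the plastid genome, had 24.1 and 52.1 CPM in nuclear RNA, against 1546 and 2368 CPM in cytoplasmic RNA (−5.68 ± 0.47, adjusted p = 9.84e-05). ATCG00160, of the same genome, lay on the other side with 338 and 191 CPM in nuclear RNA, against 21.0 and 21.5 CPM in cytoplasmic RNA (3.63 ± 0.38, adjusted p = 0.000184). Nuclear DNA near the centromere of chromosome 2 carries a copy of mitochondrial sequence, found here as a 259.3 kb stretch at chr2:3250465-3509757 of TAIR10.1. Of 63 genes tested inside it, of 158 annotated, 21 were higher and 1 lower in nuclear RNA, with a median of 2.44, close to that of the mitochondrial genome. The same filter partly set these values too. The tRNA genes AT2G07761 and AT2G07792, for example, had 15 and 14 and 22 and 19 reads in the nuclear libraries, against 0 in both cytoplasmic libraries. AT2G07763, the cysteine tRNA gene shown above, had 22 and 54 reads in the nuclear libraries, against 0 and 1 in the cytoplasmic libraries (adjusted p = 0.0136, and 0.0946 at most without nuclear replicate 2 or cytoplasmic replicate 1). Reads from this copy and from mitochondria cannot be told apart where the sequences are near identical, so both sets of values are uncertain.

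Among mRNAs, several groups of genes for proteins that act on RNA, DNA or chromatin had more members higher than lower in nuclear RNA. The share higher was 35.7% of export factors and 44.4% of DNA methyltransferases and demethylases, against 12% of all genes tested. Among chromatin remodelers and SET-domain proteins it was 23.5%. Their median transcript lengths were 2598.5, 2957 and 2926 nt in that order, against 1668 nt for all protein-coding genes. Of protein-coding genes of 2500 to 3000 nt, 17.4% were higher, with a median of 0.48. The part of length in these groups was not tested. Of 42 mRNA export factors tested, of 43 annotated, 15 were higher and 2 lower in nuclear RNA, with a median log2 difference of 0.80 and 9 to 12 higher with 1 library left out. NUA, a filament protein on the inner face of the nuclear pore, had 1469 and 1381 CPM in nuclear RNA, against 153 and 217 CPM in cytoplasmic RNA (2.94 ± 0.35, adjusted p = 0.000265); it overlaps a gene on the opposite strand. SAC3B, a scaffold of the TREX-2 export complex at the pore, had 101 and 68.6 CPM in nuclear RNA, against 13.7 and 5.84 CPM in cytoplasmic RNA (3.13 ± 0.43, adjusted p = 0.000525). Both export genes called lower encode parts of the THO complex, which couples transcription to export. TEX1 had 4.93 and 7.70 CPM in nuclear RNA, against 21.4 and 19.99 CPM in cytoplasmic RNA (−1.70 ± 0.45, adjusted p = 0.0184, and 0.127 at most without nuclear replicate 1 or either cytoplasmic replicate). THO7 had 19.6 and 12.3 CPM in nuclear RNA, against 45.8 and 33.8 CPM in cytoplasmic RNA (−1.32 ± 0.37, adjusted p = 0.0243, and 0.162 at most without nuclear replicate 2 or either cytoplasmic replicate).

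Splicing factors other than SR proteins gave 21 higher (31.3%) and 3 lower (4.48%) of 67 tested, with a median of 0.50. Of all genes tested, 12% were higher and 7.39% lower. The median transcript length of these splicing factors was 1816 nt. AT1G60200, a splicing factor with a PWI domain, had 2338 and 3180 CPM in nuclear RNA, against 252 and 382 CPM in cytoplasmic RNA (3.12 ± 0.41, adjusted p = 0.000435). ATU2AF65A, the large subunit of the factor that recognises 3′ splice sites, had 441 and 329 CPM in nuclear RNA, against 87.4 and 83.7 CPM in cytoplasmic RNA (2.17 ± 0.34, adjusted p = 0.00125). Of 20 SR proteins, 2 were higher and the rest did not pass. SR45, which has RS domains at both ends, was 1 of these, with 253 and 389 CPM in nuclear RNA, against 30.9 and 70.7 CPM in cytoplasmic RNA (2.65 ± 0.41, adjusted p = 0.00107).

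Of 24 genes for 3′ end processing factors tested, 5 were higher in nuclear RNA (20.8%, against 12% of all genes). Another 2 were lower (8.33%, near the 7.39% of all genes), and 17 did not pass. The median transcript length of the group was 2654.5 nt. The higher ones included the nuclear poly(A) polymerases, of which nPAP had 371 and 695 CPM in nuclear RNA, against 77.5 and 92.3 CPM in cytoplasmic RNA (2.65 ± 0.38, adjusted p = 0.000662). PAPS1 and PAPS2 differed by 2.8 and 3.11. Both lower genes are annotated as pre-mRNA cleavage complex II proteins. AT5G43620 had 14.7 and 16.7 CPM in nuclear RNA, against 363 and 496 CPM in cytoplasmic RNA (−4.77 ± 0.39, adjusted p = 9.84e-05). AT1G66500 had 49.5 and 47.5 CPM in nuclear RNA, against 541 and 778 CPM in cytoplasmic RNA (−3.76 ± 0.35, adjusted p = 0.000113). In aly1-2 the same genes differed by −4.74 and −4.26.

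Of 18 DNA methyltransferases and demethylases tested, 8 were higher in nuclear RNA and the other 10 did not pass, with a median of 1.15 and 3 to 5 higher with 1 library left out. DME, a DNA glycosylase that removes methylated cytosine, had 563 and 512 CPM in nuclear RNA, against 42.4 and 85.8 CPM in cytoplasmic RNA (3.06 ± 0.39, adjusted p = 0.000373). DML1, also known as ROS1, had 296 and 401 CPM in nuclear RNA, against 43.9 and 48.9 CPM in cytoplasmic RNA (2.91 ± 0.44, adjusted p = 0.000955). In aly1-2 the DML1 difference was 0.57 (adjusted p = 0.367), and the test of the difference between genotypes did not pass. RNA-directed DNA methylation, in which small RNAs guide methyltransferases to target loci, gave 9 higher (28.1%) and 1 lower of 32 tested. The median of that group was 0.69, and its median transcript length was 2642 nt. AGO4, an effector Argonaute of that pathway, had 615 and 536 CPM in nuclear RNA, against 89.3 and 118 CPM in cytoplasmic RNA (2.47 ± 0.33, adjusted p = 0.000472). KTF1, which binds AGO4, had 105 and 97.3 CPM in nuclear RNA, against 25.95 and 20.3 CPM in cytoplasmic RNA (2.13 ± 0.33, adjusted p = 0.00108). The related Argonaute AGO6 could not be read at this depth, with 0.598 and 2.61 CPM in nuclear RNA, against 4.199 and 0 CPM in cytoplasmic RNA.

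Chromatin remodelers and SET-domain proteins gave 16 higher and 3 lower of 68 tested, with a median of 0.71 and 8 to 13 higher with 1 library left out. CHR4, a remodeler of the CHD family, had 989 and 1392 CPM in nuclear RNA, against 79.4 and 114 CPM in cytoplasmic RNA (3.62 ± 0.42, adjusted p = 0.000238). CLF, the histone methyltransferase of Polycomb repressive complex 2, lay on the other side with 22.3 and 21.9 CPM in nuclear RNA, against 63.7 and 39.1 CPM in cytoplasmic RNA (−1.21 ± 0.34, adjusted p = 0.0266, and 0.167 at most without either nuclear replicate or cytoplasmic replicate 1; it overlaps a gene on the opposite strand). Genes whose protein the annotation locates to the nucleus had a median of 0.02 (1104 tested, 136 higher and 91 lower). Histone genes had a median of 0.01, with 2 higher and 2 lower of 45 tested.

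**Figure D3:**
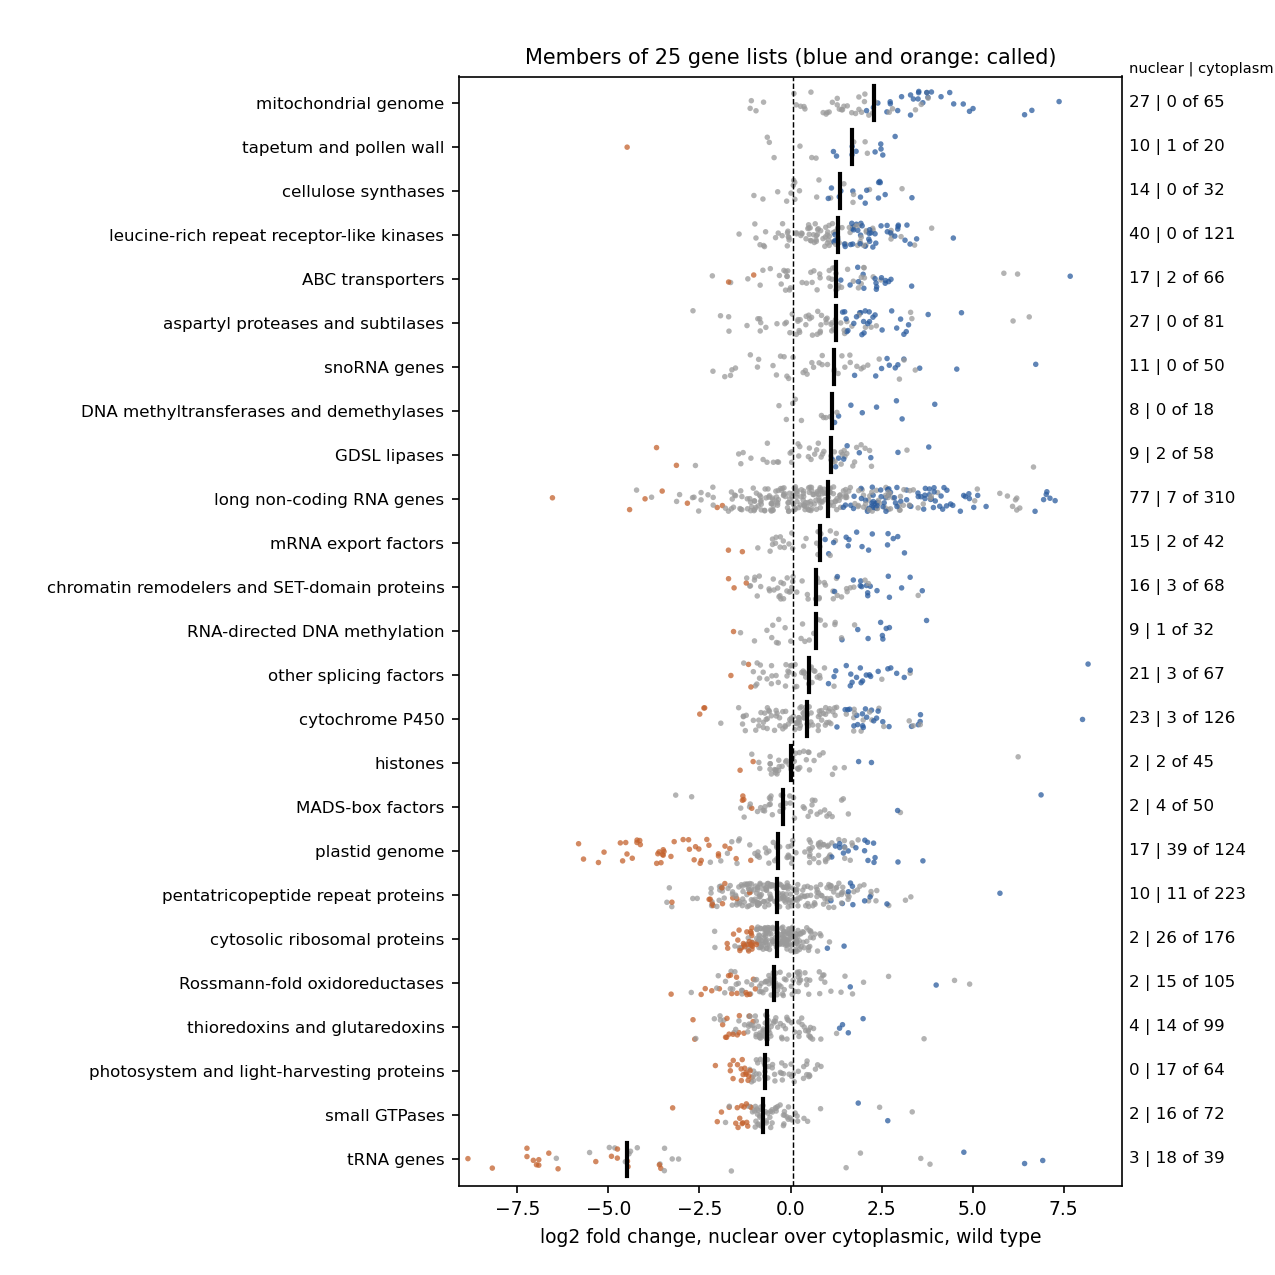
Log2 difference of nuclear over cytoplasmic RNA for each tested member (points) of 25 gene groups, with the group median (bar) and the numbers called higher and lower in nuclear RNA. Medians ran from above 1 in the cellulose synthase, receptor kinase and protease groups to below 0 in the ribosomal protein, photosystem and small GTPase groups.

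Several groups of genes for cell surface and cell wall proteins had a larger share higher in nuclear RNA than all genes did. Others did not. The share higher was 43.8% of cellulose synthases, 33.3% of aspartyl proteases and subtilases and 25.8% of ABC transporters, against 12% of all genes tested. It was 18.3% of cytochrome P450 genes, 25.5% of arabinogalactan and fasciclin-like proteins and 24.1% of lipid transfer proteins. Median transcript lengths were 2747 nt for cellulose synthases, 2097 nt for the proteases and 3849.5 nt for ABC transporters. For P450 genes, arabinogalactan and lipid transfer proteins they were 1890.5, 1034 and 850 nt. Of protein-coding genes of 3000 to 4000 nt, 23.4% were higher, near the share of ABC transporters. The figure was 17.4% for 2500 to 3000 nt and 12.7% for 2000 to 2500 nt. The part of length in these groups was not tested. Of 121 leucine-rich repeat receptor-like kinases tested, of 176 annotated, 40 were higher in nuclear RNA (33.1%, against 12% of all genes) and the other 81 did not pass, with a median log2 difference of 1.30. The number higher was 16 to 31 with 1 library left out, and lowest without nuclear replicate 2. FLS2, the receptor for bacterial flagellin, had 36.2 and 40.6 CPM in nuclear RNA, against 1.91 and 1.54 CPM in cytoplasmic RNA (4.47 ± 0.49, adjusted p = 0.000192); it overlaps a gene on the opposite strand. MEE62, of the same family, had 57.4 and 64.6 CPM in nuclear RNA, against 6.11 and 10.5 CPM in cytoplasmic RNA (2.86 ± 0.39, adjusted p = 0.000534). PRK2A, a pollen receptor kinase, did not pass, with 90.1 and 63.0 CPM in nuclear RNA, against 146 and 105 CPM in cytoplasmic RNA (−0.71 ± 0.53, adjusted p = 0.364).

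Cellulose synthases and related enzymes make wall polysaccharides at the plasma membrane and in the Golgi apparatus. Of 32 tested, 14 were higher and the other 18 did not pass, with a median of 1.36 and 7 to 10 higher with 1 library left out. CESA6, of the complex that builds primary walls, had 87.3 and 96.1 CPM in nuclear RNA, against 15.7 and 17.5 CPM in cytoplasmic RNA (2.46 ± 0.34, adjusted p = 0.000575). CESA2, of the same complex, had 98.6 and 86.5 CPM in nuclear RNA, against 21.0 and 13.8 CPM in cytoplasmic RNA (2.41 ± 0.36, adjusted p = 0.000931). Aspartyl proteases and subtilases, most of them secreted, gave 27 higher of 81 tested and a median of 1.24, with 15 to 20 higher with 1 library left out. The subtilase AT2G39850 had 142 and 122 CPM in nuclear RNA, against 18.7 and 19.7 CPM in cytoplasmic RNA (2.78 ± 0.34, adjusted p = 0.000333).

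ABC transporters gave 17 higher and 2 lower of 66, with a median of 1.25 and 7 to 12 higher with 1 library left out. ABCG32, which exports cutin precursors, had 113 and 157 CPM in nuclear RNA, against 21.8 and 18.2 CPM in cytoplasmic RNA (2.76 ± 0.37, adjusted p = 0.000437). Cytochrome P450 genes, whose enzymes sit in the endoplasmic reticulum membrane, gave 23 higher and 3 lower of 126, with a median of 0.46 and 8 to 13 higher with 1 library left out. CYP96A15, a hydroxylase of cuticular wax synthesis, had 103 and 130 CPM in nuclear RNA, against 11.8 and 7.997 CPM in cytoplasmic RNA (3.56 ± 0.39, adjusted p = 0.000192). Arabinogalactan and fasciclin-like proteins gave 12 higher and 2 lower of 47, with a median of 0.66 and 6 to 12 higher with 1 library left out. AGP31 had 504 and 431 CPM in nuclear RNA, against 65.3 and 54.8 CPM in cytoplasmic RNA (2.96 ± 0.33, adjusted p = 0.000192).

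Lipid transfer proteins gave 13 higher and 4 lower of 54, with a median of 0.42 and 6 to 11 higher with 1 library left out. LTP6, a secreted member, had 1447 and 1461 CPM in nuclear RNA, against 312 and 306 CPM in cytoplasmic RNA (2.23 ± 0.31, adjusted p = 0.000589). ACD11, a cytosolic sphingolipid transfer protein, lay on the other side with 28.7 and 31.3 CPM in nuclear RNA, against 104 and 117 CPM in cytoplasmic RNA (−1.88 ± 0.31, adjusted p = 0.00154). The share higher in nuclear RNA was under that of all genes in further secreted or wall groups, chosen after their values were seen. Thionin and defensin-like peptides gave 1 higher (3.57%) and 0 lower of 28, with a median of 0.17. Expansins, which loosen walls, gave 1 higher and 3 lower of 20, with a median of 0.30. Xyloglucan hydrolases gave 2 higher and 1 lower of 19, with a median of −0.24. Peroxidases gave 4 higher (9.76%, against 12% of all genes) and 3 lower of 41, with a median of 0.26. Of 36 signalling peptides tested, 3 were higher and 7 lower in nuclear RNA, with a median of −0.94 and 1 to 5 lower with 1 library left out. In aly1-2 the median of the signalling peptides was 0, with 3 higher and 5 lower. RALF1, a peptide that raises apoplastic pH, had 1.94 and 2.61 CPM in nuclear RNA, against 23.7 and 15.4 CPM in cytoplasmic RNA (−3.08 ± 0.54, adjusted p = 0.00233).

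**Figure D4:**
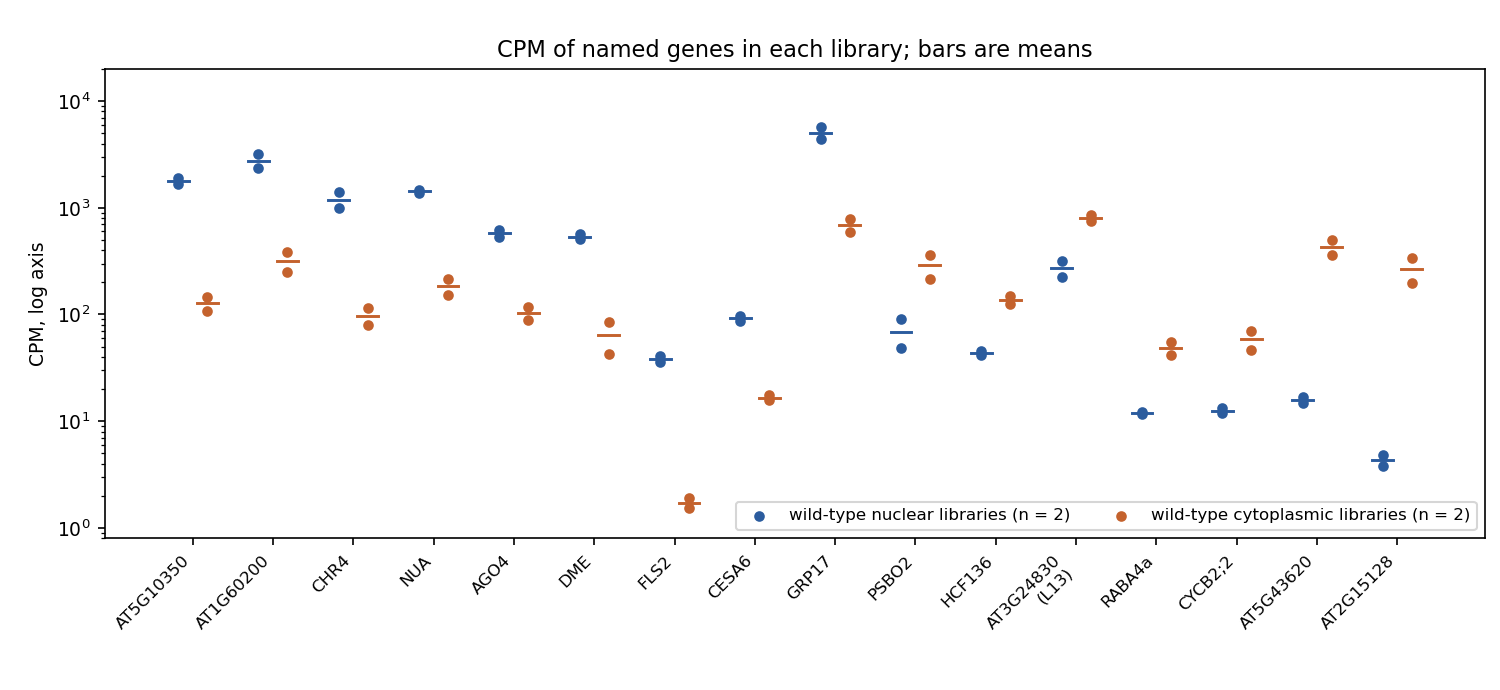
CPM in each library (log axis) for 16 genes, with nuclear libraries left of cytoplasmic libraries and bars at the means. For each gene both nuclear values lie on 1 side of both cytoplasmic values, from AT5G10350, with 1895 and 1686 CPM in nuclear RNA against 108 and 146 in cytoplasmic RNA, to AT2G15128, with 4.78 and 3.78 against 339 and 197.

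Of the 6 genes with the largest nuclear excess among called genes averaging 7 or more on the log2 CPM scale, CHR4 is described above, and 3 more follow. AT5G10350, an RNA-binding protein with an RRM motif, had 1895 and 1686 CPM in nuclear RNA, against 108 and 146 CPM in cytoplasmic RNA (3.82 ± 0.42, adjusted p = 0.000192). AT1G76720, annotated in the translation initiation factor 2 family, had 1313 and 1755 CPM in nuclear RNA, against 76.7 and 132 CPM in cytoplasmic RNA (3.88 ± 0.43, adjusted p = 0.000192). AT1G76580, a squamosa promoter-binding-like (SPL) factor, had 497 and 533 CPM in nuclear RNA, against 45.8 and 38.1 CPM in cytoplasmic RNA (3.62 ± 0.37, adjusted p = 0.000173). The same genes differed by 3.26, 3.92 and 3.41 in aly1-2. In each case the values of the fractions did not overlap.

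On the cytoplasmic side, several groups with short transcripts, among them organelle proteins encoded by the nuclear genome, had a larger share lower than all genes did. The share lower was 14.1% of thioredoxins and glutaredoxins and 16.7% of plastid and mitochondrial ribosomal proteins. It was 12.3% of respiratory chain proteins of the nuclear genome, against 7.39% of all genes tested. Median transcript lengths were 1107, 997 and 925 nt for these groups in that order. Cytosolic ribosomal proteins, photosystem proteins and small GTPases, given below, had 889, 1203.5 and 1167 nt. Of protein-coding genes up to 1000 nt, 8.27% were lower, and of those of 1000 to 1500 nt, 9.56%. The part of length in these groups was not tested. Of 176 cytosolic ribosomal protein genes tested, 26 were lower in nuclear RNA (14.8%, against 7.39% of all genes) and 2 higher, with a median log2 difference of −0.38. The number lower was 6 to 14 with 1 library left out, and lowest without cytoplasmic replicate 2. AT3G24830, of the L13 family of the large subunit, had 227 and 319 CPM in nuclear RNA, against 756 and 856 CPM in cytoplasmic RNA (−1.56 ± 0.32, adjusted p = 0.0052). AT3G04840, of the S3Ae family, was 1 of the 2 higher ones, with 613 and 334 CPM in nuclear RNA, against 183 and 159 CPM in cytoplasmic RNA (1.47 ± 0.35, adjusted p = 0.0125, and 0.0992 at most without nuclear replicate 1 or either cytoplasmic replicate). Most ribosomal protein genes, 148 of 176, did not pass the test.

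Photosystem and light-harvesting proteins, made in the cytosol and imported into plastids, gave 17 lower of 64 tested (26.6%), with a median of −0.69; the other 47 did not pass. The number was 2 to 11 with 1 library left out, at 2 without cytoplasmic replicate 2 and 4 without nuclear replicate 1. HCF136, an assembly factor of photosystem II, had 41.4 and 45.7 CPM in nuclear RNA, against 126 and 148 CPM in cytoplasmic RNA (−1.66 ± 0.31, adjusted p = 0.00305). PSBO2, of the oxygen-evolving complex, had 48.3 and 89.8 CPM in nuclear RNA, against 216 and 360 CPM in cytoplasmic RNA (−2.06 ± 0.40, adjusted p = 0.00383, and 0.0531 without cytoplasmic replicate 2). RBCS1A, the small subunit of Rubisco, did not pass, with 3110 and 4099 CPM in nuclear RNA, against 2449 and 2548 CPM in cytoplasmic RNA (0.53 ± 0.33, adjusted p = 0.283). Plastid genes themselves took a larger share of cytoplasmic libraries, as given above, and the part of that in these values was not tested. Plastid and mitochondrial ribosomal proteins gave 2 higher and 6 lower of 36, with a median of −0.52, and respiratory chain proteins of the nuclear genome 3 higher and 10 lower of 81, with a median of −0.29. With 1 library left out, 2 or 3 of the ribosomal and 0 to 6 of the respiratory genes were lower.

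Small GTPases, the switches of vesicle traffic and cell polarity, gave 2 higher and 16 lower of 72 tested (22.2% lower), with a median of −0.76. The number lower was 1 without cytoplasmic replicate 2, 2 without nuclear replicate 1, and 12 at most with 1 library left out. RABA4a had 12.3 and 11.7 CPM in nuclear RNA, against 41.6 and 55.1 CPM in cytoplasmic RNA (−2.01 ± 0.36, adjusted p = 0.0025). Thioredoxins and glutaredoxins, which reduce disulfide bonds in other proteins, gave 4 higher and 14 lower of 99, with a median of −0.65 and 5 to 8 lower with 1 library left out. GRXS13 had 4.19 and 5.09 CPM in nuclear RNA, against 33.2 and 24.6 CPM in cytoplasmic RNA (−2.63 ± 0.46, adjusted p = 0.00242). Among glycolysis genes, 1 was higher and 4 lower of 40 (10% lower, near the 7.39% of all genes), with a median of −0.46 and 2 or 3 lower with 1 library left out. PFK4, a phosphofructokinase, had 5.08 and 6.52 CPM in nuclear RNA, against 36.6 and 45.2 CPM in cytoplasmic RNA (−2.81 ± 0.44, adjusted p = 0.00125).

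Cell cycle genes divided by member. Among cyclins and cyclin-dependent kinases, 4.08% were higher and 14.3% lower, against 12% and 7.39% of all genes tested. Of 49 cyclins and cyclin-dependent kinases tested, 2 were higher and 7 lower in nuclear RNA, with a median of −0.36 and 1 to 6 lower with 1 library left out. CYCB2;2, a mitotic cyclin, had 11.8 and 13.3 CPM in nuclear RNA, against 46.2 and 70.7 CPM in cytoplasmic RNA (−2.22 ± 0.38, adjusted p = 0.00195). SYP111, the syntaxin of the dividing cell plate also known as KNOLLE, had 42.2 and 34.1 CPM in nuclear RNA, against 163 and 127 CPM in cytoplasmic RNA (−1.93 ± 0.33, adjusted p = 0.00198; it overlaps a gene on the opposite strand). AT3G51150, a kinesin motor, lay on the nuclear side with 392 and 699 CPM, against 74.4 and 62.1 CPM in cytoplasmic RNA (3.0 ± 0.39, adjusted p = 0.000402).

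Transcription factor families had called members in both directions, mostly at shares near or under the 12% higher and 7.39% lower of all genes. MYB factors gave 12 higher (11.9%) and 13 lower (12.9%) of 101, with a median of −0.23, and 7 to 11 higher and 6 to 10 lower with 1 library left out. bHLH factors gave 7 higher and 7 lower of 98 (7.14% each), with a median of −0.38, and 3 to 5 higher and 1 to 4 lower with 1 library left out. MADS-box factors gave 2 higher (4%) and 4 lower (8%) of 50, and homeobox factors 10 higher (13.5%) and 7 lower (9.46%) of 74, at medians of −0.20 and 0.08, which changed sign relative to all genes under some settings. With 1 library left out, 1 MADS-box factor was higher and 0 to 5 lower, and 4 to 8 homeobox factors were higher and 1 to 4 lower. SPL factors gave 6 higher (35.3%) and 1 lower of 17. MYB73 had 1790.0 and 1476 CPM in nuclear RNA, against 319 and 279 CPM in cytoplasmic RNA (2.45 ± 0.33, adjusted p = 0.000495; it overlaps a gene on the opposite strand). MYB68 had 2.24 and 6.52 CPM in nuclear RNA, against 54.6 and 61.8 CPM in cytoplasmic RNA (−3.71 ± 0.49, adjusted p = 0.000433).

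Among floral regulators, AGL31, of the FLC clade of flowering repressors, had 913 and 1637 CPM in nuclear RNA, against 140 and 192 CPM in cytoplasmic RNA (2.94 ± 0.41, adjusted p = 0.000581). PI, whose values are given above, lay on the cytoplasmic side (−1.28 ± 0.32, adjusted p = 0.0154, and 0.112 at most without nuclear replicate 2 or cytoplasmic replicate 2). AP1, the sepal and petal identity factor, had 30.04 and 65.6 CPM in nuclear RNA, against 88.9 and 150.1 CPM in cytoplasmic RNA (−1.32 ± 0.40, adjusted p = 0.0342, and 0.273 at most without nuclear replicate 1 or cytoplasmic replicate 2). LFY, which activates AP1, had 12.7 and 24 CPM in nuclear RNA, against 5.34 and 3.38 CPM in cytoplasmic RNA (2.08 ± 0.58, adjusted p = 0.0255, and 0.179 at most without nuclear replicate 2 or either cytoplasmic replicate). Hormone and clock regulators also split. ARF2, an auxin response repressor, had 1024 and 816 CPM in nuclear RNA, against 128 and 115 CPM in cytoplasmic RNA (2.92 ± 0.33, adjusted p = 0.000225). LHY, a morning factor of the circadian clock, had 4.93 and 3.39 CPM in nuclear RNA, against 35.1 and 19.7 CPM in cytoplasmic RNA (−2.71 ± 0.46, adjusted p = 0.00188).

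Markers of single cell types were counted because each fraction comes from mixed tissue, where fewer cells of a type yielding to one extraction and less RNA per cell cannot be told apart. Of 5 epidermis markers, 4 were higher in nuclear RNA, with a median of 1.59 and 2 to 4 higher with 1 library left out. PDF2, an epidermal homeobox factor, had 163 and 135 CPM in nuclear RNA, against 31.7 and 35.1 CPM in cytoplasmic RNA (2.16 ± 0.34, adjusted p = 0.00127). Of 20 tapetum and pollen wall genes, 10 were higher and 1 lower, with a median of 1.69 and 3 to 5 higher with 1 library left out. GRP17, a pollen coat protein made in the tapetum, had 4434 and 5665 CPM in nuclear RNA, against 593 and 786 CPM in cytoplasmic RNA (2.87 ± 0.42, adjusted p = 0.000745). DYT1, an early tapetum bHLH factor, lay on the other side with 0.150 and 0.261 CPM in nuclear RNA, against 5.73 and 4.61 CPM in cytoplasmic RNA (adjusted p = 0.0169, and 0.14 at most with any 1 library left out). Late pollen markers gave 1 higher of 8, and vascular markers 2 higher of 6 (1 with any library left out). The 5 green tissue markers had a median of −0.04, and none passed (edgeR and DESeq2, with 0 at an unadjusted p under 0.05). The part of cell type in the differences of the other groups was not tested.

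Transcript length ran alongside the side a gene fell on. Protein-coding transcripts of up to 1000 nt (3071 genes) had a median log2 difference of −0.21, with 6.02% higher and 8.27% lower in nuclear RNA. Between 2000 and 2500 nt (3008 genes) the median was 0.16. Above 4000 nt (676 genes) it was 1.42, with 48.5% of the genes higher and 1 gene lower. Over all 19457 protein-coding genes, Spearman's correlation of length with the log2 difference was 0.24 in wild type and 0.26 in aly1-2, a description across genes that share the same libraries. Exon number gave a correlation of 0.06, and the 1170 genes with more than 15 exons had a median of 0.63. The GC content of the transcript gave 0.17. The level in unfractionated wild-type RNA gave 0.09, but the share of genes called rose with it. At 1 to 10 CPM, 4.59% were higher and 3.79% lower. At 10 to 50 CPM the shares were 10.5% and 8.69%, at 50 to 200 CPM 23.2% and 9.64%, and above 200 CPM 31.2% and 7.85%. The part of level in the shares of the gene groups was not tested.

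A predicted hydrophobic stretch in the protein also ran with the nuclear side. A window of 19 residues with a mean Kyte-Doolittle hydropathy of at least 1.6, a common sign of a membrane segment or signal peptide, was absent from the proteins of 12508 genes, whose median was −0.12. It was found only in the first 40 residues for 1531 genes, with a median of 0.35, and beyond them for 5418 genes, with a median of 0.34. In each length class the genes without a stretch had the lowest median. For transcripts of 1500 to 2000 nt the medians were −0.23 without a stretch, 0.45 with one at the start only and 0.12 with one further in. Above 3000 nt they were 0.78, 1.08 and 1.25. Leucine-rich repeat receptor kinases, which carry both a signal peptide and a membrane segment, had a median of 1.05 for transcripts of 1000 to 3000 nt (56 genes, 26.8% higher), against −0.02 for other protein-coding genes of that length (10% of 14332 higher). Above 3000 nt the receptor kinases had a median of 1.64 (37.5% of 64 higher), against 0.95 for the others (31.7% of 1934 higher).

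**Figure D5:**
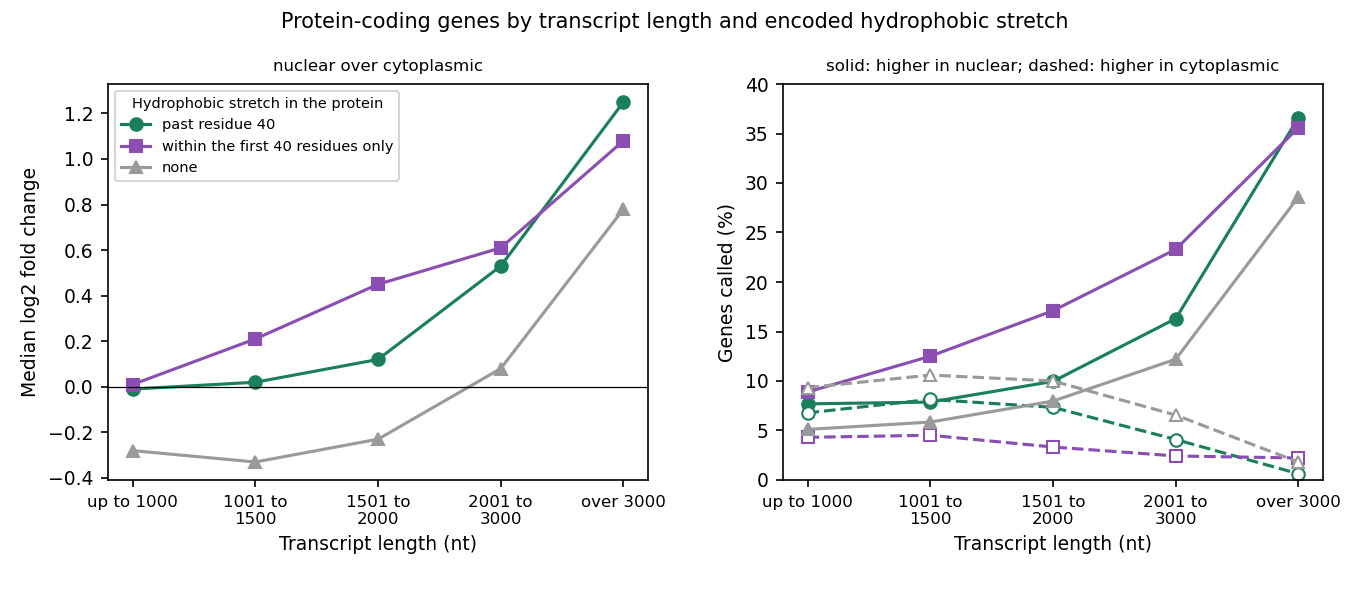
Median log2 difference of nuclear over cytoplasmic RNA (left), and percentage of genes called higher (solid) or lower (dashed) in nuclear RNA (right), by transcript length class in nt, with separate lines for proteins with no predicted hydrophobic stretch, one in the first 40 residues only, or one beyond them. In the left panel the line without a stretch is lowest in each length class, at −0.28 up to 1000 nt, −0.33 up to 1500 nt and 0.78 above 3000 nt, while the medians with a stretch are higher in each longer class.

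The protein locations given in the annotation followed a similar order in part, and not all are listed here. All protein-coding genes tested had a median of 0.04, with 11.7% higher and 7.31% lower in nuclear RNA. Proteins anchored to the plasma membrane had a median of 1.15, with 15 of 58 higher in nuclear RNA, and integral membrane proteins had 0.73, with 60 of 328 higher and 5 lower. Plant-type cell wall proteins had 0.63, with 48 of 187 higher and 4 lower, and the endomembrane system had 0.37, with 274 of 1858 higher and 63 lower. Cytosolic proteins had 0.11, with 46 of 319 higher and 30 lower. Near them lay the plasma membrane at 0.16, with 279 of 1626 higher and 134 lower. The endoplasmic reticulum had 0.25, the cell wall without the plant-type label 0.29 and the vacuole 0.01. At the other end, the chloroplast stroma had −0.39, with 15 of 283 higher and 50 lower, and the thylakoid membrane −0.53, with 7 of 197 higher and 39 lower. Peroxisomal proteins, which are made in the cytosol and imported, had −0.25, with 3 of 107 higher and 17 lower. A gene can carry several locations, so these sets overlap.

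The locus AT5G59950, which the field calls ALY1, did not differ between fractions of wild-type buds beyond the spread of its libraries. It had 137 and 68.5 CPM in nuclear RNA, against 95.04 and 102 CPM in cytoplasmic RNA (0.06 ± 0.36, adjusted p = 0.928). In aly1-2 it had 13.1 and 12.5 CPM in nuclear RNA, against 41.4 and 30.6 CPM in cytoplasmic RNA (−1.50 ± 0.38, adjusted p = 0.0169), below wild type in every library, which checks the genotype labels. The locus overlaps a gene on the opposite strand.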

How the data were processed

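The authors deposited estimated counts per gene, fractional where a read fits several genes (87.4% to 92.7% of values were whole, to 1 decimal), for 37336 TAIR10 genes. Per the submitters' processing notes, STAR 2.5.1b, featureCounts and Subread 1.6.1 were used, with no roles given; the sources used here do not give whether strand was used. Per the labels' protocols, buds were passed through a 100 µm strainer in place of Miracloth, RNA was extracted with Trizol LS, selected for poly(A), made into directional libraries and sequenced on a HiSeq4000.

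Whole counts had been assumed when the test was designed; the expected counts were rounded and tested with edgeR 4.0.16 in R 4.3.3 (quasi-likelihood F-test, 8 fraction libraries, 4 group means, Benjamini-Hochberg over all genes tested, threshold 0.05). Library sizes and TMM factors used the 37047 nuclear-genome genes outside rRNA. Genes passed edgeR's filter by group (minimum count 10, total 15). CPM uses the same scaling. An SE is the log2 difference divided by the square root of F. An empty library is set to 3 reads for a fold bound, which covers counting error only. The steps were tested on simulated data. Replicates differed by more than sampling noise (chi-square per degree of freedom 31.74 for the nuclear pair and 29.24 for the cytoplasmic pair; r of log2 CPM 0.939 and 0.893).

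Genes named were the 12 largest and 12 smallest differences among called genes without overlap at a mean log2 CPM of at least 3, the 6 of each at 7 or more, up to 3 called members of each list in each direction with the smallest adjusted p, the member of each list with the highest level, ALY1, ROS1 and AGO6, and named non-coding genes; not all are printed. The comparison and all lists were chosen with earlier results of these data known. List members came from names, symbols and biotypes in RefSeq's TAIR10.1 annotation, which holds all 37051 nuclear-genome IDs; organelle IDs have no match and are printed as IDs. Alternatives were other scalings, DESeq2 1.42.0, other filters, the 4 wild-type libraries alone, a replicate block, genes with whole counts only, and each library left out.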

Additional observations from a re-analysis of the deposited data

Results flagged for a closer look

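Of 434 named genes checked, 3 had all nuclear libraries on 1 side of the cytoplasmic ones in wild type and on the opposite side in aly1-2; in each the difference between genotypes did not pass the test in edgeR. GAPCP-1 (AT1G79530), a plastid glyceraldehyde-3-phosphate dehydrogenase, differed by −2.08 on the log2 scale between genotypes (aly1-2 minus wild type): nuclear over cytoplasmic was −0.68 in aly1-2 (adjusted p = 0.199) and 1.4 in wild type (adjusted p = 0.0212, and 0.151 at most without nuclear replicate 1 or either cytoplasmic replicate), where it had 52.5 and 31.1 CPM in nuclear RNA, against 14.9 and 16.6 CPM in cytoplasmic RNA. AT4G14530, annotated as an agamous-like MADS-box protein, differed by −7.57 in the fit, a value that rests on empty libraries: it was −0.70 in aly1-2 (adjusted p = 0.674), and it had 2.84 and 2.74 CPM in wild-type nuclear RNA, against 0 and 0 in wild-type cytoplasmic RNA, at least 2.7-fold higher. Its wild-type call was lost under the replicate block and without either cytoplasmic replicate (adjusted p 0.113 at most with a library left out). The aquaporin PIP3 (AT4G35100) differed by −0.54: it was −0.32 in aly1-2 (adjusted p = 0.467) and 0.21 in wild type (adjusted p = 0.65), where it had 508 and 443 CPM in nuclear RNA, against 439 and 383 CPM in cytoplasmic RNA.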

How the results depend on the processing

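In wild type, the main counts were 2470 genes higher and 1518 lower in nuclear RNA. Among genes with whole counts only (13181 tested) they were 1180 and 716, with fewer genes tested. With 1 library left out, 1139 to 1530 genes were higher and 450 to 861 lower. The other alternatives stayed within 1.5 times the main counts: scaling over all features gave 2318 and 1684, DESeq2 size factors 2386 and 1612, upper-quartile scaling 2478 and 1504, DESeq2's Wald test 2672 and 1919, no filter 3056 and 1608, a mean of at least 20 counts 2343 and 1633, the wild-type libraries alone 2438 and 1717, and an added limit of 1 log2 unit 2459 and 1491. A replicate block gave 2945 and 2001; same-numbered wild-type libraries deviated with r = 0.037 (aly1-2: 0.256), so the numbers are not shown to pair them. Of 381 named calls, 0 to 7 lost their call under the settings that kept all libraries and 98 to 150 with 1 left out; with whole counts only, 13 of the 172 that could be tested did; 0 were reversed. In aly1-2, all-feature scaling gave 2338 and 1636 and the block 2721 and 2144; the genotype difference stayed at 0 genes in both. Depth limits single tRNA, snoRNA and weakly expressed genes, with 2.30 M scaling reads (M, 1000000 reads) in the smallest library.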

Other observations

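Pentatricopeptide repeat proteins, RNA-binding proteins of plastids and mitochondria, gave 10 higher and 11 lower of 223 tested, with a median of −0.36, and 4 to 9 higher and 4 to 6 lower with 1 library left out. Of 6 TAS precursors, the sources of trans-acting small interfering RNAs, none passed (edgeR and DESeq2, with 0 at an unadjusted p under 0.05), with a median of −0.22. TAS2 had 14.7 and 15.8 CPM in nuclear RNA, against 12.2 and 5.84 CPM in cytoplasmic RNA (adjusted p = 0.292). Of all genes tested, 12% were higher and 7.39% lower. The pentatricopeptide shares, 4.48% higher and 4.93% lower, were under these. For the RNA polymerase II and Mediator subunits that follow, the shares were 11.5% higher and 11.5% lower. RNA polymerase II and Mediator subunits gave 6 higher and 6 lower of 52, and 1 to 6 higher and 0 to 4 lower with 1 library left out. NRPB1, the largest subunit of RNA polymerase II, had 56.2 and 64.2 CPM in nuclear RNA, against 16.8 and 20.6 CPM in cytoplasmic RNA (1.68 ± 0.37, adjusted p = 0.0082, and 0.0652 at most without cytoplasmic replicate 1 or 2).

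NLR immune receptors, intracellular sensors of pathogen effectors, gave 14 higher and 2 lower of 102, with a median of 0.33 and 8 to 10 higher with 1 library left out; AT4G23440 had 87.4 and 79.1 CPM in nuclear RNA, against 9.54 and 10.5 CPM in cytoplasmic RNA (3.05 ± 0.40, adjusted p = 0.000432; it overlaps a gene on the opposite strand). Proteasome subunits gave 2 higher and 5 lower of 45, with a median of −0.30 and 0 to 3 lower with 1 library left out. The large regulator PA200 was 1 of the higher ones, with 50.8 and 55.6 CPM in nuclear RNA, against 12.98 and 10.2 CPM in cytoplasmic RNA (2.20 ± 0.36, adjusted p = 0.00157). Translation factors gave 12 higher and 10 lower of 75, and 4 to 13 higher and 1 to 3 lower with 1 library left out. SVR3, an elongation factor of plastids, had 59.2 and 76.1 CPM in nuclear RNA, against 243 and 293 CPM in cytoplasmic RNA (−1.99 ± 0.31, adjusted p = 0.00109). By share, 13.7% of the NLR receptors were higher, near the 12% of all genes tested. Proteasome subunits were lower for 11.1%, against 7.39% of all genes tested. Translation factors were higher for 16% and lower for 13.3%.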
